A study of Mus musculus with 96 samples.

Results

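The genes Cd44, Cd164, Cd200 and Alcam, which encode glycoproteins of the cell surface, were measured in single cells of the mouse uterus. They were taken from the panel by gene symbol or, for Alcam, by the protein name CD166, and make up 4 of 96 assays. The cells were CD326-positive (EpCAM-positive) cells of the uterus at postnatal day 7, freed with collagenase and sorted singly into the wells of a plate. All 96 cells form 1 group with no treatment or control. How many mice the cells came from, and their strain and genotype, the sources used here do not give. Cells of 1 group are not replicates of a condition, so no test was made, and the intervals are exact (Clopper-Pearson) 95% intervals that cover counting error only.

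Cd44 is the main receptor for hyaluronan, a polysaccharide of the extracellular matrix, and is a known WNT target gene of intestinal epithelium. Cd164 encodes a small sialomucin, a heavily sugar-coated protein that cycles between the surface and endosomes and serves in cell adhesion. Alcam and Cd200 belong to the immunoglobulin superfamily. ALCAM binds itself on neighbouring cells and the lymphocyte receptor CD6, and CD200 binds an inhibitory receptor of myeloid cells. CD44, ALCAM and CD200 are widely used to sort stem or progenitor cells from other epithelia, and CD164 from blood.

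The promoters of the gene found in the most cells, Cd164, and of the gene found in the fewest, Cd200, are shown to place these genes on the genome. They do not show where the assays lie, since the primers are not given. Each sequence is the 250 bases before the annotated start, read 5′ to 3′ on the strand of the gene, from RefSeq (build GRCm38.p6). Capitals mark CpG dinucleotides. Cd164 lies on the plus strand at chr10:41519250-41519499 and Cd200 on the minus strand at chr16:45409054-45409303.
Cd164: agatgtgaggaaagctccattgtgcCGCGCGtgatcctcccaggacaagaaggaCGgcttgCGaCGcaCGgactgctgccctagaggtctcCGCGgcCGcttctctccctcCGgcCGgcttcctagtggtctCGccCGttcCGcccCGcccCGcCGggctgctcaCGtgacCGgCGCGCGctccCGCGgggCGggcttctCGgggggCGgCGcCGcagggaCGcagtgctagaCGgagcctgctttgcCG
Cd200: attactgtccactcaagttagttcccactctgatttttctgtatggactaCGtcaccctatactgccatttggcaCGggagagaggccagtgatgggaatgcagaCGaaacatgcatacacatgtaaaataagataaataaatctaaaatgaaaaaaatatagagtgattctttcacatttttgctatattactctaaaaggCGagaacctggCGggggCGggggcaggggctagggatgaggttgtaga
The Cd164 window held 33 CpG and was 71.6% G or C, and the Cd200 window held 6 CpG and was 42.4% G or C. The windows of Alcam and Cd44 held 22 and 5 CpG. Over 32851 mouse promoter windows the median was 6 CpG, so Cd164 and Alcam lay above it, Cd200 at it and Cd44 just below it. The motif GGGCGG, searched on both strands, occurred 4 times before Cd164, 2 times before Alcam, 1 time before Cd200 and not before Cd44, and 32.7% of all windows held it. The motif TATAAA was found in none of the 4 windows and in 12.4% of all windows, which says only that these letters are not there.

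Each value is a Ct, the number of PCR cycles needed before product was seen, so that an earlier Ct stands for more template. A gene was called detected at a Ct below 28, and its level was 28 minus Ct, a log2 scale if each cycle doubles the product. A cell detected 9 to 78 of the 96 genes, with a median of 54. In 8 cells the reference gene Gapdh, a glycolytic enzyme, came at a Ct of 18 or later or had no Ct, and these low-Gapdh cells detected 9 to 30 genes. Cell 67 is among them. It has no value in the first 71 assays, Cd44 and Cd164 included, while it detected Alcam (Ct 17.8) and Cd200 (Ct 19.8). The 6 epithelial markers Epcam, Cdh1, Krt8, Krt18, Krt19 and Cd24a were detected in 77.1% to 96.9% of cells. Of 10 markers of endothelium, leukocytes, stroma and smooth muscle, none was at 0, and shares ran from 7.29% for Vim to 96.9% for Pecam1.

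All 4 genes were found in most cells, with Cd164 in the largest share and Cd200 in the smallest. Each passed 50% of cells, as did 53 of the 96 assays (55.2%), so passing that mark does not set them apart. Of their 384 values, 311 (81.0%) were detected, against 52.6% of all values of the panel. The share of Cd164 was 88.5% (85 of 96 cells, interval 80.4 to 94.1%) and that of Alcam 82.3% (79 of 96, interval 73.2 to 89.3%). Cd44 reached 80.2% (77 of 96, interval 70.8 to 87.6%) and Cd200 in 72.9% (70 of 96, interval 62.9 to 81.5%). The interval of each gene overlaps that of its neighbour in this order. Among all assays Cd164 ranked 11 by share, level with Prnp, Cdh1, Klf4, Myc and Ctnnb1. Alcam ranked 21, level with the assay cd327 and between Kit (81 cells) and Lgr4 (78 cells). Cd44 ranked 24, level with Cd9 and Nanog and just above Epcam (74 cells). Cd200 ranked 31, level with the assay sma and between Mme (73 cells) and Itga6 (68 cells).

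**Figure D1:**
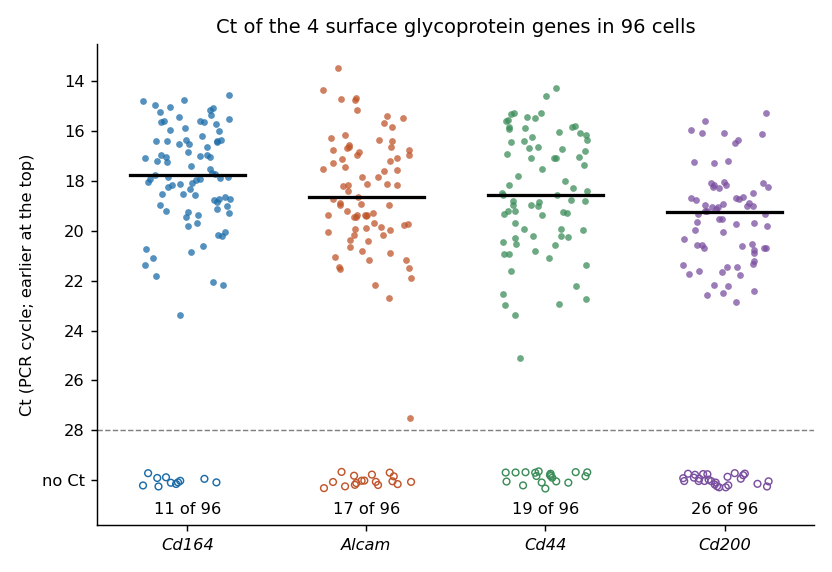
Ct of Cd164, Alcam, Cd44 and Cd200 in 96 cells, with earlier cycles at the top. Filled points are cells with a Ct below 28 (dashed line), bars are their medians, and open points are the 11, 17, 19 and 26 cells with no Ct, spread sideways for display; no value lies between the line and the open points.

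None of the 4 genes had a value in the zone just past the limit. Over the panel 45 recorded values came at a Ct of 28 or later, and 0 of them belonged to these genes, so every undetected cell had no Ct at all. The latest Ct of Cd164 was 23.4 and that of Cd200 was 22.9. Cd44 reached 25.1 in 1 cell, and Alcam reached 27.5 in 1 cell, while its next latest value was 22.7. The plot of Ct by cell shows this gap between the detected and the undetected cells of each gene.

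Where they were detected, the 4 genes came at similar cycles. The Ct of Cd164 ran from 14.5 to 23.4 over its 85 cells, with a median of 17.7. That of Alcam ran from 13.5 to 27.5 (median 18.6, 79 cells) and that of Cd44 from 14.3 to 25.1 (median 18.6, 77 cells). Cd200 ran from 15.3 to 22.9 (median 19.3, 70 cells), so it had the latest median and the narrowest range. Mean levels were 10.23 ± 1.96 for Cd164, 9.54 ± 2.38 for Cd44, 9.51 ± 2.30 for Alcam and 8.60 ± 1.86 for Cd200 (SD over detecting cells). For the 53 assays that passed 50% of cells the median was 9.09, with a median SD of 2.09. All 4 means lie within 1 SD of each other, and since assays can differ in efficiency their order is only rough. Within single cells Cd164 came before Cd200 in 55 of the 67 cells with both, by a median of 1.70 cycles. Alcam came before Cd44 in 33 of 68 cells, so these genes had no fixed order.

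Most cells carried several of the genes at once. All 4 were detected in 58.3% of cells (56 of 96, interval 47.8 to 68.3%), 3 in 21 cells, 2 in 10, 1 in 4 and none in 5. The number followed the depth of the cell, counted as genes detected among the other 92 assays. Its median was 52 in cells with all 4 genes, 49 with 3, 33.5 with 2, 32 with 1 and 20 with none. The low-Gapdh cells held 4 of the 5 cells with none. Of the 21 cells with 3 genes, 9 lacked Cd200, 6 lacked Alcam, 5 lacked Cd44 and 1 lacked Cd164. No cell carried Cd200 or Cd44 as its single gene of the 4, whereas 3 cells carried Cd164 alone and 1 carried Alcam alone.

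**Figure D2:**
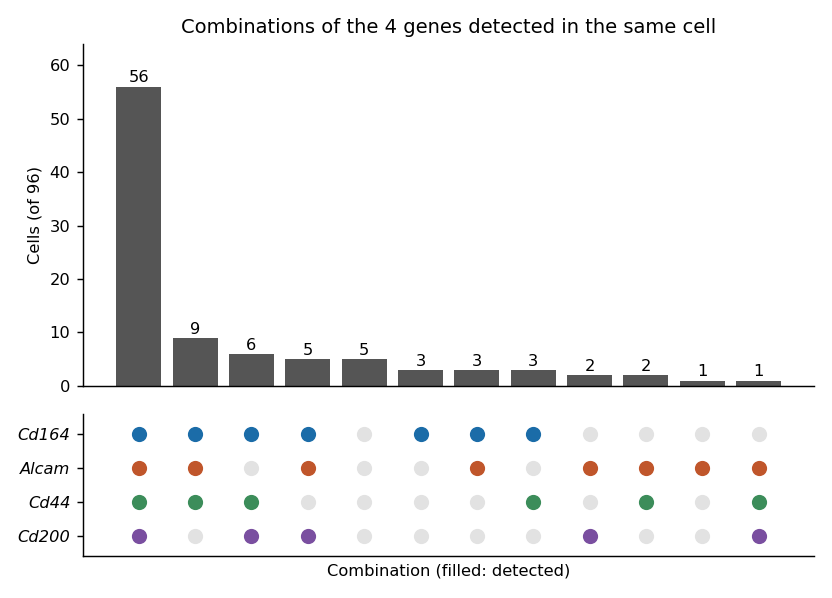
Number of cells (of 96) with each combination of the 4 genes that occurred; coloured dots below a bar mark the genes detected. The bar for all 4 genes holds 56 cells, and the next, all but Cd200, holds 9.

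Each gene was found more often in cells that carried another of the 4 than in cells that did not, and depth differed in the same direction. Cd200 was detected in 81.0% of the 79 cells with Alcam (interval 70.6 to 89.0%) and in 35.3% of the 17 without it (interval 14.2 to 61.7%). The median depth of these cells was 51 and 38 of the other 92 genes. Cd44 was detected in 87.1% of the 85 cells with Cd164 (interval 78.0 to 93.4%) and in 27.3% of the 11 without it (interval 6.02 to 61.0%), at median depths of 51 and 20. Without the low-Gapdh cells the share of Cd200 was 82.9% with Alcam and 50.0% without it. Over all cells Cd44 was in 86.1% of those with Alcam and 52.9% of the 17 without it. Without the low-Gapdh cells these shares differed less, at 86.8% with Alcam and 75.0% of the 12 without it. Of the 11 cells without Cd164, 7 were low-Gapdh, so few were left to repeat the comparison of Cd44 by Cd164. The part of depth in these differences was not tested.

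The genes also varied with the amount of template. In the 48 cells with the lowest Gapdh Ct, Cd164 was detected in all 48 (interval 92.6 to 100%), and in the other 48 cells in 77.1% (37 cells, interval 62.7 to 88.0%). Alcam was detected in 46 and 33 of 48 cells, Cd44 in 46 and 31, and Cd200 in 40 and 30. The differences, from 20.8 percentage points for Cd200 to 31.3 for Cd44, stand beside a median of 18.75 points over the panel. Of the 96 assays, 87 (90.6%) were found more often in the cells with low Gapdh Ct, so this direction is shared by nearly the whole panel. Low-Gapdh cells account for 7 of the 11 cells without Cd164, 5 of the 17 without Alcam, 6 of the 19 without Cd44 and 7 of the 26 without Cd200. In the 88 other cells the shares were 95.5% for Cd164, 86.4% for Alcam, 85.2% for Cd44 and 78.4% for Cd200.

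**Figure D3:**
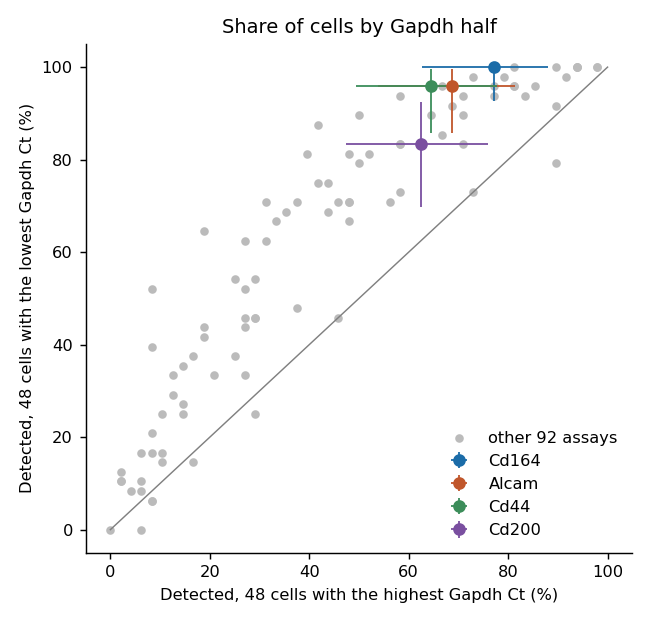
Share of cells that detected each assay in the 48 cells with the lowest Gapdh Ct (vertical axis, percent) against the other 48 cells (horizontal axis, percent). Coloured points are Cd164, Alcam, Cd44 and Cd200 with exact 95% intervals, grey points the other 92 assays, and the line marks equal shares; all 4 genes lie above it.

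Of the 4 genes, Cd200 had the Ct that followed Gapdh most closely in the cells that had it, and the most cells without it among those with an early Gapdh Ct. Over the 69 cells with both genes, the Ct of Cd200 followed that of Gapdh with a Spearman rho of 0.77 (Pearson r = 0.78, and 0.75 without the 2 cells farthest from the median Gapdh Ct). That rho ranked 2 among 85 genes, whose median was 0.52. The SD of Cd200 Ct minus Gapdh Ct was 1.18 cycles, against 1.62 for Cd164, 1.90 for Cd44 and 1.91 for Alcam and a median of 2.07 over the genes. The rho of the others was 0.71 for Cd164 (r = 0.63, 85 cells), 0.70 for Cd44 (r = 0.63, 77 cells) and 0.67 for Alcam (r = 0.61, 78 cells). Against actin the rho of Cd200 was 0.49, below 0.71 for Cd44, 0.65 for Cd164 and 0.64 for Alcam. Against Hprt, also a reference gene, it was 0.58, with 0.80 for Cd164, 0.68 for Alcam and 0.57 for Cd44. Cd200 thus had the highest rho of the 4 with Gapdh and not with actin or Hprt. These are descriptions over cells that share 1 chip, and no p is given.

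Of the 48 cells with the lowest Gapdh Ct, 8 had no Cd200, whereas 2 had no Alcam, 2 had no Cd44 and 0 had no Cd164. The 8 cells detected a median of 56.5 of the other 92 genes, close to the 56 of all 48 cells. The latest Gapdh Ct of a cell with Cd200 was 16.2, among cells with Gapdh detected. Cd164 was found up to a Gapdh Ct of 21.2, and Alcam and Cd44 up to 20.5.

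**Figure D4:**
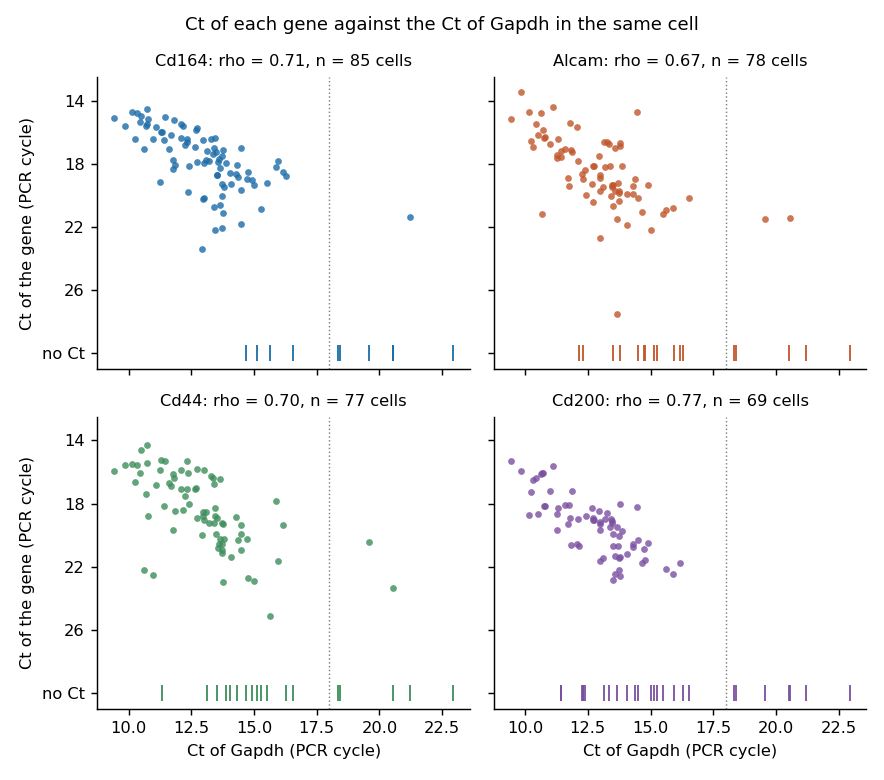
Ct of each gene (vertical axis, earlier cycles at the top) against the Ct of Gapdh in the same cell (horizontal axis); bars at "no Ct" are cells in which the gene was not detected, the dotted line is a Gapdh Ct of 18, and cell 67, with no Gapdh Ct, is left out. The points of Cd200 form the tightest band (rho = 0.77, 69 cells), while its bars reach well into the cells with early Gapdh.

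Shares were also set against Epcam, the gene of the sorted antigen. Cd164, Alcam and Cd44 had a higher share in cells with Epcam, and Cd200 nearly the same share in both, a contrast between genes that was not tested. Cd164 was detected in 93.2% of the 74 cells with Epcam (interval 84.9 to 97.8%) and in 72.7% of the 22 cells without it (interval 49.8 to 89.3%). Alcam was detected in 86.5% and 68.2% of these cells, and Cd44 in 85.1% and 63.6%. Cd200 was found in 73.0% of cells with Epcam (interval 61.4 to 82.6%) and 72.7% of cells without it (interval 49.8 to 89.3%). The intervals of each gene overlap, and the cells with and without Epcam detected a median of 51.5 and 43 of the other 92 genes. Of the 8 low-Gapdh cells, 1 detected Cd164, 3 Alcam, 2 Cd44 and 1 Cd200. These cells made up 4 of the 74 cells with Epcam and 4 of the 22 without it. Leaving them out, a choice made after the values were seen, gave Cd164 in 98.6% of 70 cells with Epcam and 83.3% of 18 without it. Alcam was then at 88.6% and 77.8%, Cd44 at 87.1% and 77.8%, and Cd200 at 77.1% and 83.3%, so the differences of Cd164, Alcam and Cd44 were smaller.

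Cells with each of the 4 genes detected a higher median number of markers of other cell types, and depth differed in the same direction. Single markers did not all go this way. Vim, Pecam1, Mcam and sma had a lower share in cells with Alcam than in cells without it. So did Thy1 and Mcam for Cd44, and Vim for Cd164. Of the 10 markers, the median number detected was 6 in cells with Cd164 and 2 in cells without it, 6 and 4 for Alcam, 5 and 4 for Cd44, and 6 and 4 for Cd200. Their summed level had a median of 48.9 in cells with Cd164 and 19.6 in cells without it. For Cd200 it ran from 10.6 to 81.1 in cells with the gene (median 49.3) and from 0 to 67.0 in cells without it (median 31.4), at median depths of 51 and 38 of the other 92 genes. The part of these markers and of depth in the results was not tested.

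To find the genes most like each of the 4, levels were set to 0 where undetected and the straight-line dependence on a cell's gene count was removed. Spearman rho was then taken over 96 cells against 85 other genes found in at least 10% of cells. Over all 3655 pairs the median rho was 0.03, and 90% of pairs lay between -0.26 and 0.39. Gapdh kept a rho of 0.38 with Cd164, 0.38 with Alcam, 0.35 with Cd44 and 0.29 with Cd200. The residual levels thus still followed this reference gene in part. By this rho Cd164 had the strongest partners of the 4 genes. Its rho was 0.64 with Itgb1, the beta-1 integrin gene (r = 0.51), 0.55 with Prnp, the prion protein gene (r = 0.37), and 0.53 with Ctnnb1, the beta-catenin gene (r = 0.46). Of the 82 cells with Itgb1, 81 had Cd164. As Ct minus Gapdh Ct, in the cells with both genes, these rho were 0.41, 0.46 and 0.41. On that scale they lay below the 0.53 of Cd200 with Lgr4. These partners were picked on the first scale, and on the second other genes came higher. Among those were Hprt for Cd164 (0.55, 61 cells) and Pax2 for Cd200 (0.59, 36 cells).

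For Cd44 the 3 closest genes were Itgb1 (rho = 0.45, r = 0.28), the keratin gene Krt8 (rho = 0.44, r = 0.27) and Cd164 (rho = 0.36, r = 0.18). In the cells with Epcam the rho of Cd44 with Krt8 was 0.61. For Alcam they were Cd200 (rho = 0.42, r = 0.36), Gapdh (rho = 0.38, r = 0.13) and the keratin gene Krt19 (rho = 0.37, r = 0.32). Without cell 67, which lacks a Gapdh value, Gapdh came first for Alcam at 0.43 and Cd200 fell to 0.39. For Cd200 they were the R-spondin receptor genes Lgr6 (rho = 0.45, r = 0.39) and Lgr4 (rho = 0.44, r = 0.26), followed by Alcam. As Ct minus Gapdh Ct in cells with both genes, the rho of Cd200 was 0.53 with Lgr4, 0.10 with Lgr6 and 0.19 with Alcam. Among cells that carry both genes, the values with Lgr6 and Alcam were thus much lower. Lgr4 and Lgr6 were detected in 64 and 52 of the 70 cells with Cd200.

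**Figure D5:**
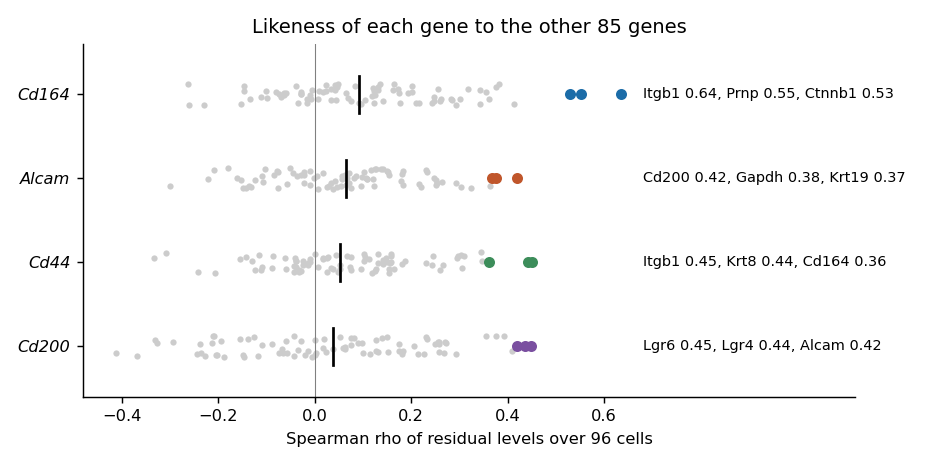
Spearman rho of the level of each of the 4 genes with 85 other genes over 96 cells, after the dependence on gene count was removed; coloured points and names are the 3 highest, black bars the medians. Itgb1, Prnp and Ctnnb1 lie apart for Cd164, while the highest values of the other 3 genes stay below 0.46.

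Among the 4 genes themselves, 2 pairs had a rho of residual levels above 0.3, Alcam with Cd200 (0.42) and Cd44 with Cd164 (0.36). Alcam with Cd44 had 0.16, Cd200 with Cd44 0.13, Alcam with Cd164 0.02 and Cd164 with Cd200 -0.03. Without that correction for gene count, the same 6 pairs ran from 0.44 to 0.67, so each pair was lower with it.

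Genes on lists related to the 4 genes differed widely in share. Of all 96 assays, 53 (55.2%) passed 50% of cells. The lists hold the 4 genes themselves and overlap, so their counts are not separate from the shares given above. Of 6 measured adhesion genes of the immunoglobulin superfamily, 4 passed 50% of cells, namely Pecam1 (93 cells), Alcam, Cd200 and Ncam1 (50 cells), while Mcam was lowest with 15 cells. All 4 mucin-like genes passed, with Cd24a in 87 cells, Cd164 in 85, Cd44 in 77 and Cd34, at a mean level of 4.95 ± 1.73, in 49. All 6 genes of a list made up of Cd9, a tetraspanin, and surface proteins that associate with tetraspanins passed too, led by Itgb1 (82 cells), with Cd9 and Cd44 in 77 each. Of 10 stem cell surface and hair follicle bulge genes, 7 passed, led by Alcam, Cd44 and Cd200, and Lgr5 was lowest with 20 cells. A list of 5 WNT pathway genes held Ctnnb1, whose product carries the signal, and 4 targets of the pathway. Of these 5 genes 3 passed, Ctnnb1 and the target Myc with 85 cells each and the target Cd44 with 77, while the target Lgr5 was lowest with 20. The median share was 62.5%, 84.4%, 78.6%, 58.9% and 80.2% in these 5 lists and 56.8% over the panel.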

How the data were processed

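Raw Ct values of 96 assays in 96 cells were used as the authors deposited them, with no normalization per the file headers. Values of 40 were read as no Ct, since the highest other value was 29.0. Per the labels' protocols, single cells were lysed, preamplified with a 1-step kit and measured with EvaGreen on a Fluidigm Biomark chip. The sources used here do not give threshold settings, quality settings or primers. A second deposited table holds the authors' fold ratios, relative to a housekeeping gene and then to cell 1 per the file headers. It was used as an alternative scale, and recomputing it with Gapdh matched to within 6.55e-06 on the log2 scale.

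All 96 cells were kept and none was removed as a doublet. Detection was a Ct below 28. Depth is the number of detected genes, and arrays of this kind give no counts. The 4 promoter windows were matched by symbol. The genes, lists and cells left out were chosen with earlier results of these data known. Named genes were the 4 genes, Gapdh, actin, Hprt and Epcam, the 3 closest by rho to each of the 4, their neighbours in the order of shares, markers by list, and up to 4 of the highest and 1 of the lowest in each list. Vim and the single markers named beside it, and the genes of the closing section, were named after their values were seen. The rho step was run on simulated data with strongly linked pairs planted among widely detected genes. That run checks the step only and does not bear on the weaker rho reported here. Python 3.11.15, numpy 2.4.6, pandas 2.3.3, scipy 1.17.1 and matplotlib 3.10.9 were used.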

Additional observations from a re-analysis of the deposited data

How the results depend on the processing

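Of 106 values of the shares, mean levels and counts of cells with all 4 genes or none, 86 stayed within the counting interval or 1 SD and 20 moved. A reversal of sign could be called only for some of all 617 values. These were 28 differences between cells with low and high Gapdh Ct, 16 values of rho with Gapdh and 95 with named partners. None of them reversed. Of the 4 genes, only Alcam (27.5 in 1 cell) and Cd44 (25.1 in 1 cell) had a Ct past 24. Limits of 24 and 26 could thus change few calls, and they moved none of the shares. No value of these genes came at 28 or later, so taking any recorded Ct could not change a share. At 26 Alcam and Cd44 changed places by level. Where all 3 reference genes were detected (63 cells), Cd164 was at 96.8%, Alcam at 92.1% and cells with none at 0%. Without the 10% of cells with the fewest genes Cd164 was at 96.6% and cells with none at 1.15%, and without the low-Gapdh cells 95.5% and 1.14%. Mean levels of Cd164, Alcam, Cd44 and Cd200 were -4.80, -5.56, -5.53 and -6.66 minus Gapdh, and -4.57, -5.26, -5.26 and -6.33 minus Gapdh and actin. They were 14.65, -4.30, -2.70 and 13.17 as log2 deposited folds, where Cd164 and Cd200 have no Ct in cell 1, the divisor. Cd200 was at 6.27 with undetected cells at 0. These level shifts follow from the scales. Among 95 values of rho with the named partners, 32 moved by over 0.1. No paired analysis was possible because all cells form 1 group. A gene missed in a shallow cell and a gene absent from it cannot be told apart.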

Other observations

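Cd164 was present in every cell that carried certain other genes. Of 85 other genes found in at least 10% of cells, 15 were detected only in cells with Cd164. Among them were Pgr, the progesterone receptor gene, Mki67, a gene of cycling cells, and Ptprc, a leukocyte gene found in 57 cells, all 3 picked after their values were seen. Genes that pattern the female tract fell on both sides, with Wnt7a, Pax2, Emx2 and Hoxa10 detected only in cells with Cd164, whereas 27 of 29 cells with Hoxa11 and 35 of 36 with Hoxa13 had it. The 5 genes that were also detected in 85 cells covered 14 (Prnp), 13 (Ctnnb1), 8 (Myc), 6 (Cdh1) and 4 (Klf4) genes in this way. Wnt7a, Pax2, Emx2, Hoxa10 and Ptprc were likewise detected only in cells with Ctnnb1. Pax2, Emx2, Hoxa10, Mki67 and Ptprc were detected only in cells with Prnp. For these genes the pattern is thus not particular to Cd164. Pgr was not wholly covered by any of the 5. Cells without Cd164 detected a median of 20 genes of the other 92, and the part of depth in these counts was not tested.

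Eng, which encodes endoglin, a co-receptor of TGF-beta signalling, was detected in 13 cells, and all 13 had Cd200. The 13 cells also lay wholly within those of 11 other genes, Gapdh and Krt8 among them, so this is not particular to Cd200. These 12 genes were detected in 70 (Cd200) to 95 cells. It was found in 18.6% of the 70 cells with Cd200 (interval 10.3 to 29.7%) and in 0 of the 26 without it, a count that leaves room for a share of at most 11.5% (3 counts) or 13.2% (upper end of the exact interval). Cells with and without Cd200 detected a median of 51 and 38 of the other 92 genes. In the cells with Epcam the counts of Eng with and without Cd200 were 4 of 54 and 0 of 20. Of the 13 cells, 12 had Cd164, 12 had Cd44 and 11 had Alcam. The pair was chosen after its values were seen and was not tested.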
